A study of Homo sapiens with 20 samples.

Results

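Differentiated Caco-2 cells that had shared their apical medium with live Lactobacillus acidophilus NCFM for 8 h were compared with Caco-2 cells kept in medium alone for the same 8 h. The comparison takes 4 of the 20 arrays of the series, 2 of the NCFM co-culture and 2 of the 8 h medium control. The arrays were picked out by their labels, and the groups were chosen with earlier results of these data known. Caco-2 cells come from a human colon carcinoma and, once confluent, resemble absorptive enterocytes of the small intestine, and all groups had been differentiated on culture inserts with a 5-day protocol. Washed NCFM cells, grown anaerobically in MRS broth with glucose, were added on the apical side at 20 to 100 bacteria per Caco-2 cell without antibiotics, and control cells received medium only. Where NCFM is set against other live bacteria, the reference is a pair of co-cultures run in the same way for 8 h, with Bifidobacterium animalis ssp. lactis 420 and with Lactobacillus salivarius Ls-33, each with 2 arrays. RNA was labelled from 5 µg of total RNA and read on whole-genome expression arrays, on which a gene is read by 1 or more groups of oligonucleotides called probe sets. The series describes the arrays of a group as duplicates and does not say whether they came from separate cultures, so p-values measure only the spread between arrays, which may be technical.

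Enterocytes take up sugars, peptides, fats and bile acids through carriers and enzymes of the brush border, and they ship fat to the lymph in lipoproteins that are assembled with the triglyceride transfer protein MTTP and apolipoproteins. Lactobacilli ferment sugars to lactate and acidify the medium around the cells they touch. Epithelial cells sense bacterial surface molecules through receptors that release the transcription factor NF-kB, which turns on chemokines, cytokines and its own inhibitors.

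All values are log2 signals, on which a difference of 1 is a 2-fold change, and differences are NCFM co-culture minus medium unless another reference is named. A gene was represented by 1 probe set, tested if its mean signal reached a floor of 2.74, and called at a limma adjusted p under 0.05. The floor and the spread used 14 arrays, among them cells given 10% cell-free supernatant of NCFM, B. lactis 420 or Ls-33 for 24 h. Of 11865 genes tested, 4186 were called (35.3%), 1997 of them higher (16.8%) and 2189 lower (18.4%). With joint quantile normalization of the arrays the split was 2288 higher and 1934 lower, so the balance of directions depends on the scaling. At 2-fold or more, 181 were higher (1.53%) and 299 lower (2.52%). Both NCFM arrays lay above both medium arrays for 31.7% of genes and below both for 33%. The median difference over all genes was -0.006, and the 5th and 95th percentiles were -0.732 and 0.664. Members named because a count was 5 or fewer were chosen after their values were seen.

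The median signal was 2.69 and 2.7 in the NCFM arrays, against 2.68 and 2.67 in the medium arrays, and arrays of a group correlated at r = 0.995 and 0.996 across probe sets. As a gauge of RNA integrity, the beta-actin control probe sets at the 3' and 5' ends differed by 1.25 and 1.54 in the NCFM arrays, against 0.88 and 0.80 in the medium arrays. For GAPDH the gap was 0.10 and 0.11, against 0.020 and -0.035. These values moved with the comparison, and their part in the results below was not tested. Of 13 measured Caco-2 and enterocyte markers none lay under the floor, 6 fell and 3 rose, and their summed log2 signal was 135.0 and 135.5 with NCFM, against 138.5 and 137.6 with medium. Markers of goblet, Paneth, enteroendocrine and tuft cells summed to 26.3 and 26.6, against 27.5 and 27.8, with 8 of 11 under the floor. Those of fibroblasts and endothelium summed to 53 and 53, against 54.1 and 54.0, with 4 of 10 under the floor, and leukocyte markers to 23.0 and 22.3, against 25.3 and 24.7, with 4 of 7 under it, PTPRC and CD3E included. COL1A1, LUM, PECAM1 and CD3D read well above the floor in all 4 arrays. Among the leukocyte markers CD3D fell most, at 6.44 and 6.09 with NCFM, against 8.32 and 8.25 with medium. CSF1R fell as well, and ITGAM was not called. The cultures were of the Caco-2 line, so these markers do not count cells of other kinds. Within that line, fewer cells that express a gene and less of its RNA per cell cannot be told apart.

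The deepest falls reached 4.64 and included carriers, secreted proteins and a death ligand. SLC2A5, the fructose transporter of the brush border, read 4.35 and 4.52 with NCFM, against 9.0 and 9.15 with medium, a 24.9-fold fall (difference -4.64 ± 0.19 SE, limma adjusted p = 4.59e-13). Its other 2 probe sets fell as well, by 4.99 and 1.24. TNFSF10, the death ligand TRAIL, read 3.36 and 2.80 with NCFM, against 7.44 and 7.54 with medium, a 21.3-fold fall. LGALS14, a galectin gene, read 6.35 and 6.06, against 10.66 and 10.46 (20.4-fold). Only genes whose NCFM arrays both lay on 1 side of both medium arrays were ranked, so this separation is part of the choice. The other genes among the 15 deepest falls were SLC51A, AQP10, SERPINA6, ADGRF2P, ARG1, MTTP, NRN1, APOA4, SERPINC1, PHEX, NR1I3 and TNS1, with differences from -3.65 for SLC51A to -2.84 for TNS1. SERPINA6, the cortisol-binding globulin of plasma, read 4.52 and 4.78, against 8.02 and 8.00 (10.3-fold lower), and ARG1, the urea cycle arginase, 3.09 and 3.26, against 6.42 and 6.30 (9.14-fold lower).

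Rises were smaller and reached 2.64. DHRS2, a short-chain dehydrogenase, read 7.24 and 7.55 with NCFM, against 4.92 and 4.60 with medium, a 6.22-fold rise (2.64 ± 0.20 SE, limma adjusted p = 4.18e-09). RSRP1, a protein rich in arginine and serine, read 9.68 and 9.85, against 7.24 and 7.15 (5.94-fold). TAF1D, which helps to recruit RNA polymerase I and whose gene hosts small nucleolar RNAs, read 8.78 and 9.01, against 6.87 and 6.87 (4.07-fold). The rises were ranked under the same rule of arrays that do not overlap. Among the 15 largest rises were also ATP5F1C, GVQW3, GPATCH2L, DAPK1-IT1, SNHG19, MTHFD2L, FUBP1, CBFA2T2, FRMD6-AS1, PPFIBP1, VAMP1 and MIR146A, with differences from 2.46 for ATP5F1C to 1.77 for MIR146A. For ATP5F1C, a subunit of ATP synthase, the rise was on 1 probe set (8.24 and 8.32, against 5.87 and 5.76). The other 3, which may cross-hybridise, differed by -0.09 to -0.08 and were not called. GPATCH2L, CBFA2T2 and PPFIBP1 also had other probe sets of the opposite sign without a call, though 1 other of CBFA2T2 was called higher. The probe set named for MIR146A does not read the mature microRNA and lay under the floor in medium (2.28 and 2.14).

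**Figure D1:**
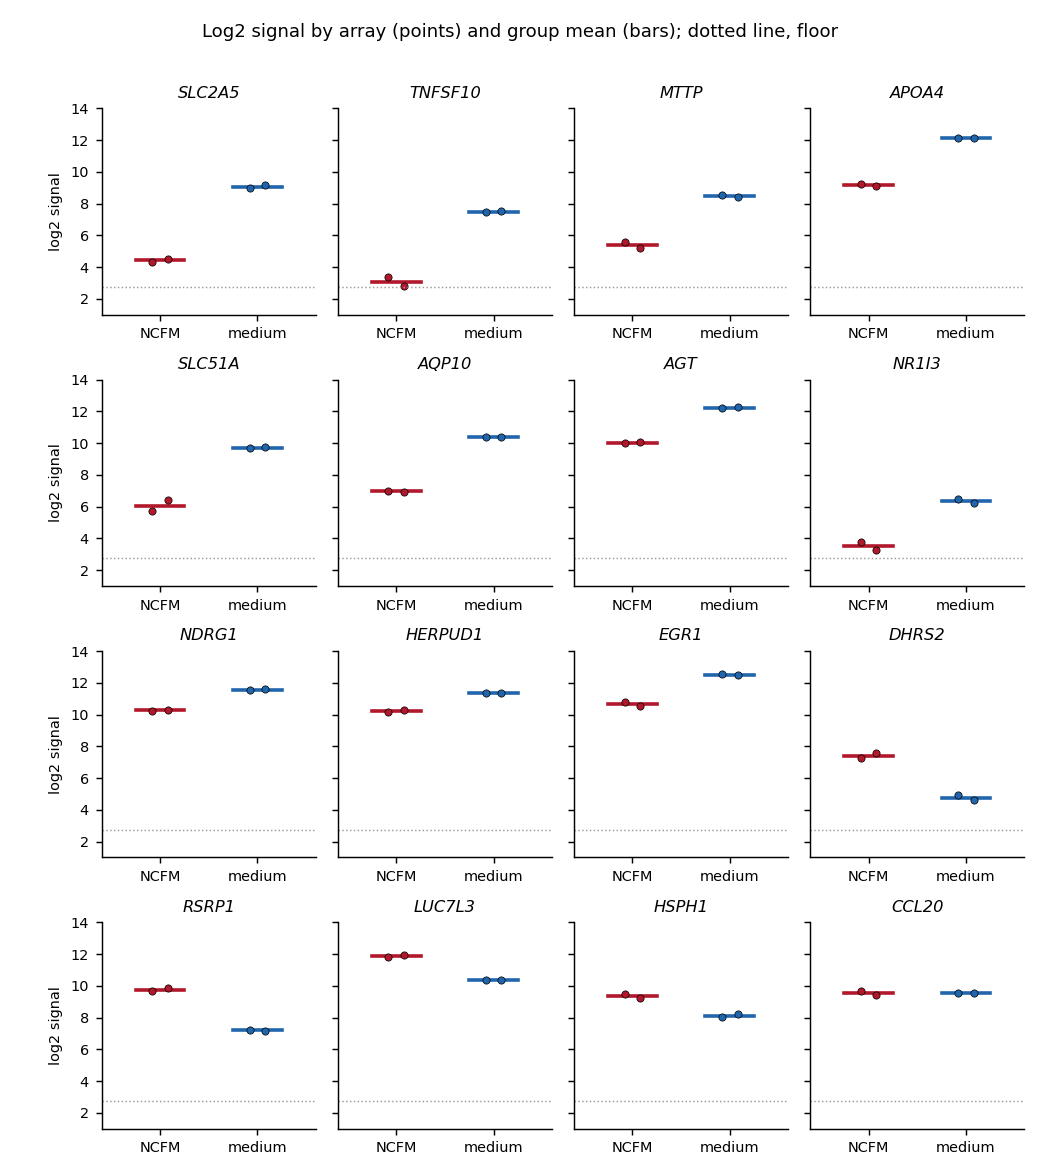
Log2 signal of 16 genes in each array, with NCFM co-culture on the left and 8 h medium on the right of each panel; points are arrays and bars are group means (n = 2). SLC2A5 sits at 4.35 and 4.52 with NCFM and at 9.0 and 9.15 with medium, while CCL20 overlaps between the groups.

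Genes of fat absorption fell together. Of 24 listed genes of lipoprotein assembly and lipid absorption 19 were tested, 14 of them fell (73.7%, against 18.4% of all genes) and none rose, with a median difference of -0.57 beside -0.006 for all genes. MTTP, which loads triglyceride onto nascent lipoproteins, read 5.57 and 5.22 with NCFM, against 8.52 and 8.40 with medium (8.41-fold lower, limma adjusted p = 1.73e-12). The apolipoprotein APOA4 read 9.24 and 9.09, against 12.11 and 12.11 (7.71-fold lower). APOC3 and APOB, apolipoproteins of triglyceride-rich particles, fell by 1.36 and 1.04. TM4SF5 fell by 1.55 and ACSL5, which activates fatty acids, by 1.41. The uncalled members with the highest signal were DGAT2, an enzyme of triglyceride synthesis, at -0.13, the vesicle coat GTPase SAR1B at 0.06 (2 of its 4 other probe sets fell, by 0.22 and 1.92) and the fatty acid carrier SLC27A4 at 0.45 (limma adjusted p = 0.056).

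Brush border genes moved the same way. Of 26 listed genes 19 were tested, and 14 fell (73.7%) and 2 rose, with a median of -0.59. PDZK1, a scaffold for apical carriers, read 6.49 and 6.41 with NCFM, against 8.75 and 8.55 with medium (-2.20 ± 0.11 SE). MYO1A, a myosin of the microvillus, read 6.24 and 5.68, against 7.35 and 7.75, and the metallopeptidase MEP1A 9.19 and 9.02, against 10.32 and 10.37. The peptidase DPP4 fell by 0.89 and the alkaline phosphatase ALPP by 0.71. VIL1, villin, which bundles the actin core, fell by 0.38 on its chosen probe set and by 0.39 on another, while its remaining 2 probe sets rose by 1.01 and 1.16. Sucrase-isomaltase, SI, was an exception, at 8.07 and 7.82 with NCFM, against 6.72 and 6.79 with medium (1.19 ± 0.14 SE, limma adjusted p = 1.70e-06), and the scaffold gene USH1C rose by 0.60. These 2 are named because they were the only risers, after their values were seen. The USH1C call was lost without either NCFM array or without medium replicate 1 (adjusted p up to 0.158), and 2 other USH1C probe sets fell by 0.83 and 0.65. EZR, ESPN and PLS1, which shape or link microvillar actin, were not called, at -0.05, -0.23 and 0.14.

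Bile acid genes were read in full because the list is short. Of 14 listed genes 9 were tested, 7 fell (77.8%, against 18.4% of all genes) and 1 rose (11.1%, against 16.8%). SLC51A and SLC51B, the subunits of the basolateral bile acid exporter, fell together: SLC51A read 5.70 and 6.42 with NCFM, against 9.67 and 9.74 with medium (12.5-fold lower), and SLC51B 8.19 and 7.86, against 9.09 and 9.09. FABP6, the cytosolic bile acid carrier, read 6.95 and 7.08, against 8.14 and 8.27. The conjugate pumps ABCC2 and ABCC3 fell by 0.60 and 0.95, the uptake carrier SLCO2B1 by 0.68 and the sterol hydroxylase CYP27A1 by 1.06. ABCC4, an efflux pump of the same family, went the other way, at 8.83 and 8.82, against 8.22 and 8.25 (0.59 ± 0.089 SE, limma adjusted p = 4.10e-05), though 2 of its other probe sets stood at -0.27 and -0.50 without a call. FGF19, the hormone that bile acids induce in the ileum, was not called (-0.20).

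Some nuclear receptors and other transcription factors were lower too. Of 31 tested lineage and nuclear receptor factors (43 listed) 10 fell (32.3%, against 18.4% of all genes) and 2, FOXA1 and HES1, rose. The intestinal factors CDX2, HNF4G, FOXA2, FOXA3, ELF3 and PROX1 were among the 19 not called, while GATA4 and ISX were among the fallers. NR1I3, the xenobiotic receptor CAR, read 3.78 and 3.27 with NCFM, against 6.50 and 6.23 with medium (7.15-fold lower). MAF, a leucine zipper factor, read 6.33 and 6.57, against 8.60 and 8.68. PPARA, the receptor for fatty acids, read 6.47 and 6.03, against 8.10 and 8.21, and 5 of its 7 other probe sets fell too. NR2F1 fell by 1.43, the oxysterol receptor NR1H3 by 1.26 and NR5A2 by 0.70. GATA6, KLF5, KLF4 and NR1D2 were not called, at 0.03, 0.00, -0.05 and -0.08. CREB3L3, a membrane-bound factor that raises apolipoprotein genes, fell by 1.74.

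Carriers of water, ions and amino acids split. Among 16 tested water and ion carriers (28 listed) 8 fell and 4 rose. AQP10, a water and glycerol channel, read 6.96 and 6.95 with NCFM, against 10.40 and 10.42 with medium (10.9-fold lower). The chloride and bicarbonate exchanger SLC26A3 read 6.44 and 6.70, against 8.32 and 8.30, and the water channel AQP3 10.80 and 10.92, against 11.92 and 11.94. Carbonic anhydrase 2, CA2, read 8.46 and 8.47, against 7.59 and 7.56, while the membrane-bound CA12 read 4.76 and 5.01, against 5.78 and 6.04. The chloride channel CFTR was among the 4 risers, at 6.33 and 6.33, against 5.33 and 5.21; it was named after its values were seen. Of 18 tested amino acid and peptide carriers (21 listed) 8 fell (44.4%, against 18.4% of all genes) and 4 rose (22.2%, against 16.8%). SLC3A1 and SLC7A9, which form the cystine carrier of the brush border, fell by 1.84 and 1.79, and the peptide transporter SLC15A1 read 7.58 and 7.57, against 8.84 and 8.92. SLC3A2 and SLC1A1 were not called.

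Genes of metal handling moved in both directions. Of 18 tested (22 listed) 8 fell (44.4%, against 18.4% of all genes) and 6 rose (33.3%, against 16.8%). SLC11A2, the apical iron transporter, read 8.23 and 8.30 with NCFM, against 9.97 and 10.15 with medium (-1.79 ± 0.092 SE, limma adjusted p = 1.49e-11). The ferroxidase HEPH fell by 0.77, the zinc importer SLC39A4 by 1.48 and the zinc exporter SLC30A1 by 0.90. Metallothioneins, small proteins that hold zinc and copper, went up: MT2A read 10.13 and 10.26, against 9.26 and 9.33 (1.86-fold), and MT1H 7.36 and 7.37, against 6.34 and 6.50. MT1E and MT1F were not called, at 0.31 and 0.11. Metallothionein genes are near-identical copies, and the MT1H probe set may cross-hybridise, so its value is uncertain.

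The metal response motif TGCGCNC, searched on both strands, was present in all 3 metallothionein promoters that the RefSeq table held for 5 tested genes, against 20.0% of 27305 promoters. A promoter here is the first listed window of a gene, 250 bases before to 50 bases after a transcription start in GRCh38.p14. Those of the 2 metallothioneins above are shown because the zinc-sensing factor MTF1 is known to bind this motif, with the matches in capitals. MT2A lies at chr16:56608334-56608633 on the plus strand and MT1H at chr16:56669564-56669863 on the plus strand.
MT2A: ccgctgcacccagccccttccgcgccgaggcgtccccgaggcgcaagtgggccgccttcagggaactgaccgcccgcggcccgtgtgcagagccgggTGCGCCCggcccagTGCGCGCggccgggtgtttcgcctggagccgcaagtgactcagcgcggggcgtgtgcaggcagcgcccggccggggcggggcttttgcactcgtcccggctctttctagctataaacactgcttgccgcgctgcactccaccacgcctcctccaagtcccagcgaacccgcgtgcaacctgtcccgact
MT1H: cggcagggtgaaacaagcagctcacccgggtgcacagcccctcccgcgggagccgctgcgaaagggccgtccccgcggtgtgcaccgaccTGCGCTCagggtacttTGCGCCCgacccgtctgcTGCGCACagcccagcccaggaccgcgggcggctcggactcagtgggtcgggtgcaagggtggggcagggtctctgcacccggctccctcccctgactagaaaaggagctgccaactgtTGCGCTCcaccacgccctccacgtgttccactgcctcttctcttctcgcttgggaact

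Caco-2 cells also make many proteins that the liver secretes into plasma, and 22 of 29 tested genes of this kind (35 listed) fell (75.9%), with a median of -0.68, while FGB and FGG, chains of fibrinogen, rose. AGT, angiotensinogen, read 10.02 and 10.05 with NCFM, against 12.21 and 12.26 with medium (-2.20 ± 0.051 SE, limma adjusted p = 9.94e-17). SERPINC1, antithrombin, read 4.40 and 3.93, against 7.04 and 7.05, and AFP, the fetal albumin, 6.91 and 6.87, against 8.81 and 8.66. The protease inhibitor SERPINA1 fell by 1.15, transferrin, TF, by 2.16 and the retinol-binding protein RBP2 by 1.58. The FGG call (0.31) was lost without NCFM replicate 1 or medium replicate 2 (adjusted p up to 0.201). The list also holds galectins and RBP2, which are not plasma proteins, and its deepest fall is LGALS14, above. FGA, LGALS3 and C3 were not called, at 0.21, -0.07 and 0.26.

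Detoxifying enzymes moved in both directions, with 10 of 22 tested (34 listed) lower (45.5%, against 18.4% of all genes) and 7 higher (31.8%, against 16.8%). The 7 were CYP1B1, CYP2R1, UGT8, GSTA4, GSTO1, GSTP1 and DHRS2, the last being the largest rise given above. UGT1A6, a glucuronosyltransferase, read 4.97 and 5.16 with NCFM, against 7.10 and 7.31 with medium, and the retinal reductase DHRS3 3.44 and 2.88, against 4.62 and 4.68. CYP2S1 fell by 1.26 and CYP1A1, the classic target of the aryl hydrocarbon receptor, by 0.55, while the receptor itself, AHR, was not called (-0.03). Without a single array the count of higher enzymes fell to 3 (NCFM replicate 2 or medium replicate 2), 4 (medium replicate 1) or 5 (NCFM replicate 1). UGT1A6 shares its last exons with the other UGT1A genes, so its probe set may read several of them.

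Glycolysis and the targets of the hypoxia-inducible factors were lower in most members. All 33 listed genes with a named probe set were tested, of 35 listed, and 25 fell (75.8%) and 2 rose, with a median of -0.40. NDRG1, which hypoxia raises, read 10.26 and 10.30 with NCFM, against 11.56 and 11.59 with medium (-1.30 ± 0.058 SE, limma adjusted p = 2.18e-12). GPI, of the second step of glycolysis, read 10.13 and 9.96, against 11.09 and 11.15, and P4HA1, a collagen prolyl hydroxylase, 11.62 and 11.54, against 12.64 and 12.64. ERO1A, the oxidase that forms disulfide bonds in the endoplasmic reticulum, fell by 0.93, enolase, ENO1, by 0.59 and lactate dehydrogenase A, LDHA, by 0.50. TPI1, GAPDH and BNIP3 were not called, at -0.09, -0.07 and -0.09. PFKFB3, which makes an activator of glycolysis, and the stress gene DDIT4 were the 2 risers, by 0.33 and 0.60, and were named after their values were seen.

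ACGTG, the core that hypoxia-inducible factors bind, stood in 14 of the 29 promoters found for this list, against 21.6% of all promoters. It is also the inner part of CACGTG. The uncalled GAPDH, ENO2 and BNIP3 and the riser DDIT4 held it too, while EGLN3, the deepest fall of the list, did not. A link between the motif and the falls was not tested. The promoters of LDHA, with 3 matches, and ERO1A, with 1, are shown because both genes fell and lie in textbook hypoxia pathways, with the motif or its reverse complement in capitals. LDHA lies at chr11:18394313-18394612 on the plus strand and ERO1A at chr14:52695509-52695808 on the minus strand.
LDHA: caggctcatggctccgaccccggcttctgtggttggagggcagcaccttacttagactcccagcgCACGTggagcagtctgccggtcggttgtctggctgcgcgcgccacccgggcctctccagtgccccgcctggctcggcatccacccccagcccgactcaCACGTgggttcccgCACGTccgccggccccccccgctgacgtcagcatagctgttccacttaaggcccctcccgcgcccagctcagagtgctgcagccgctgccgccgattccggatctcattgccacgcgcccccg
ERO1A: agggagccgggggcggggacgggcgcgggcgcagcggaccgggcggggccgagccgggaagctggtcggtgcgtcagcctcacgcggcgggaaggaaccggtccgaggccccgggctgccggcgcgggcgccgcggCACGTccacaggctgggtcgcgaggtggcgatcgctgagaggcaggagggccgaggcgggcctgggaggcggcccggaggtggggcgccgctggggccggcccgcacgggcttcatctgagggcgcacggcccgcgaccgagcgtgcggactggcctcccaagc

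Sterol genes followed in part. Of 22 tested genes of cholesterol synthesis (28 listed) 11 fell (50%) and 3 rose, with a median of -0.30. DHCR7 and EBP, late enzymes of the pathway, fell by 0.77 and 0.62, and INSIG1, the sterol sensor, read 10.82 and 10.92 with NCFM, against 11.42 and 11.38 with medium. IDI1 rose by 1.46 on its chosen probe set, but another fell by 0.20, so its direction depends on the probe set. HMGCS1, SQLE and STARD4 were not called. Among genes that respond to glucose through MondoA and ChREBP, TXNIP, an inhibitor of glucose uptake, read 11.25 and 11.21, against 11.47 and 11.55 (-0.28 ± 0.049 SE), and its relative ARRDC4 read 6.52 and 6.53, against 6.18 and 5.98 (0.45 ± 0.14 SE). The ARRDC4 call against medium was lost without either NCFM array or without medium replicate 2 (adjusted p up to 0.146). ARRDC3, an arrestin of the same family, read 8.88 and 8.82, against 7.73 and 7.53. The other 4 tested of 10 listed, MLXIP, MLXIPL, KLF10 and ARRDC2, were not called.

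Chaperones of the cytosol and of the endoplasmic reticulum moved in opposite directions. Of 20 tested heat shock genes (27 listed) 9 rose (45%, against 16.8% of all genes) and 1, HSPB8, fell, a call lost without NCFM replicate 2 or either medium array (adjusted p up to 0.151). HSPH1, a co-chaperone of HSP70, read 9.50 and 9.22 with NCFM, against 8.03 and 8.22 with medium (1.24 ± 0.099 SE, limma adjusted p = 1.05e-08). CHORDC1, a partner of HSP90, read 11.35 and 11.20, against 10.56 and 10.53, and DNAJB4 6.63 and 6.73, against 6.0 and 5.72. HSP90AA1, the stress-inducible HSP90, rose by 0.45, and its 3 other probe sets rose too. HSPB1, DNAJB1 and HSP90AB1 were not called, at -0.01, 0.16 and -0.07. HSPA1A had no tested probe set that names it alone.

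A heat shock element, here 3 units of GAA and TTC in alternation with 2 bases between them, was found in 3 of the 17 promoters of this list, against 0.487% of all promoters. The 3 were those of CHORDC1 and DNAJA1, which rose, and of DNAJB6, which was not called (-0.11). HSPH1, DNAJB4 and HSP90AA1 rose and had no match. A link between the element and the rises was not tested. The promoter of CHORDC1, at chr11:90223000-90223299 on the minus strand, is shown because the gene rose and the element, in capitals, lies before its start.
CHORDC1: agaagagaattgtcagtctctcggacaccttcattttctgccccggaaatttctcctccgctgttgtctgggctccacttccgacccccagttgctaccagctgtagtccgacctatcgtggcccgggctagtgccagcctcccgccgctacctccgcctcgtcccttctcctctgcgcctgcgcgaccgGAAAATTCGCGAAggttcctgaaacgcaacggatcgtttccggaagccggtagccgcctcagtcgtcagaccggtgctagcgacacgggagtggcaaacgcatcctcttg

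Against this, 18 of 24 tested genes of the unfolded protein response (25 listed) fell (75%) and 2 rose, with a median of -0.33. HERPUD1, of protein degradation at the endoplasmic reticulum, read 10.14 and 10.29 with NCFM, against 11.33 and 11.39 with medium (-1.14 ± 0.058 SE). The chaperone HSP90B1 read 10.67 and 10.40, against 11.38 and 11.23, HSPA5, also called BiP, fell by 0.43, and the co-chaperone DNAJB9 by 0.84. CALR, calreticulin, fell by 1.16 on its chosen probe set but rose by 1.16 and 0.99 on its other 2, which may cross-hybridise. XBP1, the transcription factor of this response, was not called (10.07 and 10.12, against 10.05 and 10.12). Targets of ATF4, the factor of the integrated stress response, fell in 10 of 26 tested (29 listed, 38.5%, against 18.4% of all genes). They rose in 4 (15.4%, against 16.8%). TRIB3, a pseudokinase among them, read 7.01 and 7.15, against 8.84 and 8.87 (-1.77 ± 0.096 SE), and ATF4 itself fell by 0.66, while the serine synthesis enzyme PSAT1 read 7.39 and 7.21, against 6.05 and 6.16. Of 23 tested targets of the oxidative stress factor NRF2 (26 listed) 12 fell (52.2%, against 18.4% of all genes) and 6 rose (26.1%, against 16.8%). The 2 subunits of the enzyme that starts glutathione synthesis moved apart, with the modifier GCLM at 8.65 and 8.28, against 7.40 and 7.26, and the catalytic GCLC at 10.09 and 9.95, against 10.79 and 10.75. AKR1C1, a ketosteroid reductase, fell by 1.09.

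Of 27 tested proteasome subunits (31 listed) 12 rose (44.4%) and none fell, with a median of 0.15. The rises were small, 0.24 to 0.59 among the 6 named by the rule. PSMD2, of the regulatory particle, read 10.15 and 10.22 with NCFM, against 9.56 and 9.63 with medium, and PSMA4, of the core ring, 11.79 and 11.71, against 11.40 and 11.32. PSMB1, PSMB7 and PSMC2 were not called. SQSTM1, the autophagy receptor p62, rose by 0.71. Of 38 tested subunits of oxidative phosphorylation (42 listed) 12 rose (31.6%, against 16.8% of all genes) and 5 fell (13.2%, against 18.4%). ATP5F1C, above, is 1 of the risers, on 1 probe set.

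**Figure D2:**
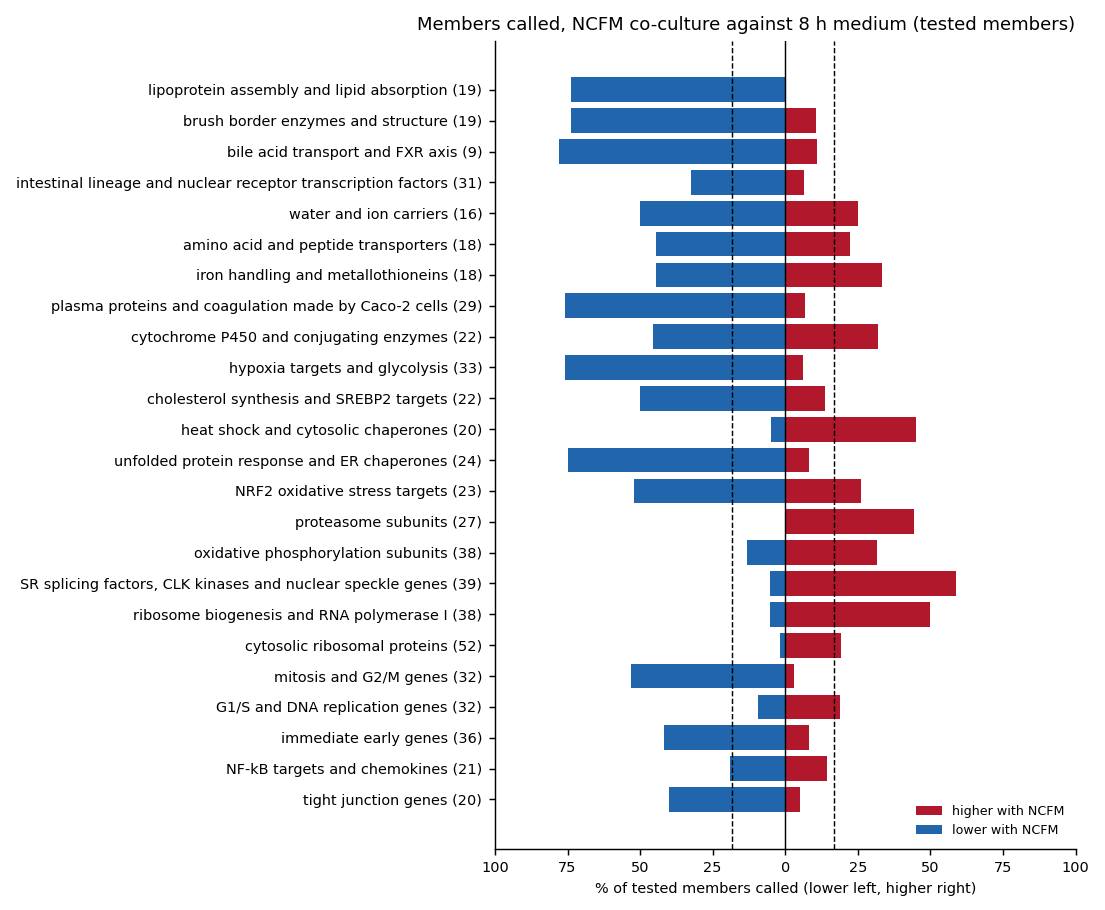
Share of tested members called higher (right) and lower (left) with NCFM than with 8 h medium, in percent of the members tested, for 24 gene lists. Dashed lines mark the share of all 11865 genes, 16.8% higher and 18.4% lower; plasma protein, hypoxia and unfolded protein response genes reach 75% or more lower.

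Among the 44 lists the largest share of rises was in splicing regulators and nuclear speckle genes. Of 39 tested (43 listed) 23 rose (59.0%, against 16.8% of all genes) and 2 fell, with a median of 0.40. LUC7L3, a U1-associated splicing factor, read 11.81 and 11.93 with NCFM, against 10.34 and 10.35 with medium (1.52 ± 0.059 SE, limma adjusted p = 2.27e-13). RBM25, a splicing regulator, read 8.38 and 8.75, against 7.47 and 7.44, and 5 of its 6 other probe sets rose. CLK1, the kinase that phosphorylates SR proteins, read 8.81 and 8.69, against 7.75 and 7.62. PNN and ARGLU1, of the speckle, rose by 0.86 and 0.79. SRSF3, SRSF5 and HNRNPA2B1 were not called, at 0.03, -0.12 and -0.00, although another probe set of SRSF5 rose by 0.67 and 2 others of HNRNPA2B1 by 0.88 and 0.52. The fallers were SRSF8 and HNRNPDL, the second with another probe set that rose by 0.67. Long non-coding RNAs that stay in the nucleus went with them, with 5 of 10 tested (16 listed) higher and 1 lower. MALAT1, of the speckle, read 12.71 and 12.81, against 11.93 and 11.84, and 8 of its 11 other probe sets rose. FTX read 7.49 and 7.58, against 5.59 and 6.07, and DLEU2, KCNQ1OT1 and TUG1 rose by 1.15, 0.81 and 0.37. OIP5-AS1 fell by 0.27, and NORAD, JPX, DLEU1 and HCG18 were not called. Without NCFM replicate 1 the count of higher RNAs was 3. DLEU2 lost its call without NCFM replicate 1 or medium replicate 1, KCNQ1OT1 without NCFM replicate 1 or medium replicate 2, and OIP5-AS1 without NCFM replicate 2 or medium replicate 1.

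Ribosome biogenesis was higher as well, in 19 of 38 tested genes (43 listed, 50%), with 2 lower and a median of 0.29. NOP2, a methyltransferase of the large subunit, read 8.52 and 8.55 with NCFM, against 7.75 and 7.51 with medium, and POLR1B, a subunit of RNA polymerase I, 7.89 and 7.76, against 7.14 and 7.04. NHP2 rose by 0.63 and NOP58, of the methylation particles, by 0.44. MYC, which drives this programme, was 1 of the 2 fallers (8.56 and 8.45, against 8.93 and 8.97), the other being FBL. Cytosolic ribosomal proteins rose in 10 of 52 tested (78 listed, 19.2%) and fell in 1, a share of rises near that of all genes, with a median of 0.02. Among 8 tested snoRNA host genes (27 listed) TAF1D, SNHG19 and WDR43 rose (37.5%, against 16.8% of all genes). SNHG32 and EPB41L4A-AS1 fell (25.0%, against 18.4%), while GAS5, ZFAS1 and SNHG17 were not called. Another ZFAS1 probe set rose by 1.79, and the EPB41L4A-AS1 call was lost without NCFM replicate 2 or medium replicate 1.

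For many genes the direction depended on which probe set was read. With NCFM, 258 of the 1556 genes that had 2 or more called probe sets (16.6%) had some higher and some lower, beside 136 of 1435 (9.48%) with B. lactis 420 and 129 of 1555 (8.30%) with Ls-33, each against the same medium arrays. The widest gap was in NKTR, a cyclophilin-related protein, where 1 probe set read 7.30 and 7.32 with NCFM, against 4.71 and 5.13 with medium, and another 3.36 and 3.37, against 4.62 and 4.77. In SOS1, a guanine nucleotide exchange factor for Ras, 1 probe set rose by 2.08 and 3 other probe sets fell by 0.30 to 1.08. GART, of purine synthesis, rose on 4 probe sets, by up to 2.37, and fell on 1 by 0.52. MBNL2, G3BP1, UACA, NAMPT, WWC1, ZCCHC7, LPP, SQLE and ORAI2 completed the 12 widest. The falls on the chosen probe sets of MBNL2, ORAI2 and ZCCHC7 lost their calls when single arrays were left out (adjusted p up to 0.15, 0.196 and 0.142): NCFM replicate 1 or medium replicate 1 for MBNL2, NCFM replicate 1 or medium replicate 2 for ORAI2, and NCFM replicate 2 or either medium array for ZCCHC7. Where on its transcript each probe set lies was not analysed here.

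**Figure D3:**
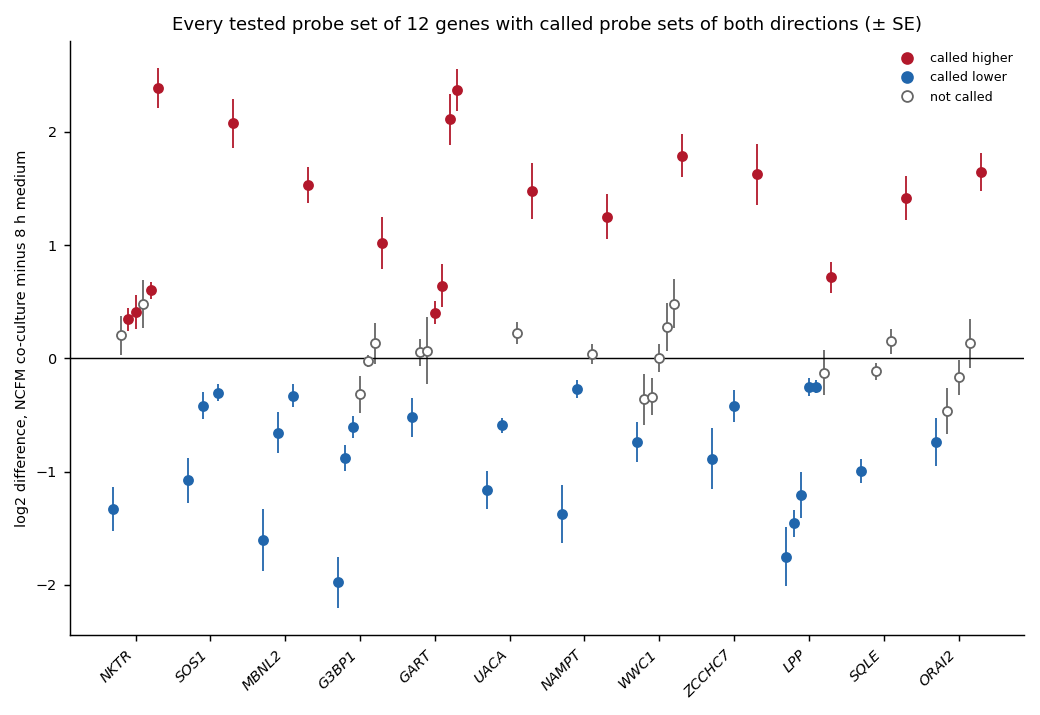
Log2 difference of NCFM co-culture minus 8 h medium for every tested probe set of the 12 genes with the widest gap between called probe sets of opposite direction; filled points are called, open points are not, and bars are standard errors. In NKTR the called probe sets span from -1.33 to 2.39.

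Genes of late cell division fell while those of DNA replication did not follow. Of 32 mitosis genes, all tested, 17 fell (53.1%) and 1, MAD2L1, rose, with a median of -0.33; another MAD2L1 probe set fell by 0.52. TPX2, a spindle factor, read 8.56 and 8.47 with NCFM, against 9.23 and 9.22 with medium (-0.71 ± 0.10 SE, limma adjusted p = 1.63e-05). The phosphatase CDC25C read 4.05 and 3.83, against 5.17 and 5.10, and cyclin B1, CCNB1, fell by 0.51, as did the kinase AURKA. CDK1, NEK2 and CKS2 were not called. Of 32 tested genes of the G1/S step and replication (34 listed) 6 rose and 3 fell, with rises near the share of all genes, 3 of them without medium replicate 2, and a median of 0.11. PCNA, the sliding clamp, read 10.39 and 10.57, against 10.10 and 10.06, and the helicase subunit MCM4 7.21 and 7.68, against 6.70 and 6.80, while cyclin D1, CCND1, fell by 0.47. CDKN1A, the inhibitor p21, read 7.68 and 7.60, against 8.37 and 8.70.

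Growth factor signalling genes were lower. Of 36 tested immediate early genes (44 listed) 15 fell (41.7%) and 3 rose, with a median of -0.23. EGR1, which serum and growth factors induce within minutes, read 10.77 and 10.54 with NCFM, against 12.54 and 12.49 with medium (-1.86 ± 0.061 SE, limma adjusted p = 2.31e-14), and both its other probe sets fell. IER2 read 8.67 and 8.86, against 9.58 and 9.70, and FOS fell by 0.66. The phosphatases DUSP6 and DUSP1, which extracellular signal-regulated kinase activity induces, fell by 0.62 and 0.63. JUN was an exception, at 7.54 and 7.40, against 6.85 and 6.67, and its 3 other probe sets rose too. JUND, IER5 and KLF4 were not called. Among 14 tested genes of the EGF receptor family and its feedback (20 listed) 8 fell (57.1%) and none rose. EGFR itself read 9.88 and 9.89, against 10.58 and 10.57, with all 4 other probe sets lower, and the feedback inhibitors SPRY1 and SPRED1 fell by 0.90 and 0.78. EREG, ADAM10 and ADAM17 were not called. Of 19 tested BMP and TGF-beta genes (26 listed) 9 fell (47.4%) and none rose. ID1 and ID2, direct BMP targets, read 9.43 and 9.34, against 10.43 and 10.45, and 11.31 and 11.37, against 12.01 and 11.99. BMPR2, TGFBR1 and TGIF1 were not called. DKK1, a secreted Wnt inhibitor, rose by 1.21 (11.27 and 11.17, against 10.08 and 9.94), and the clock gene CRY1 by 0.93, while PER2 fell by 0.77, a call lost without medium replicate 2 (adjusted p = 0.0667).

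**Figure D4:**
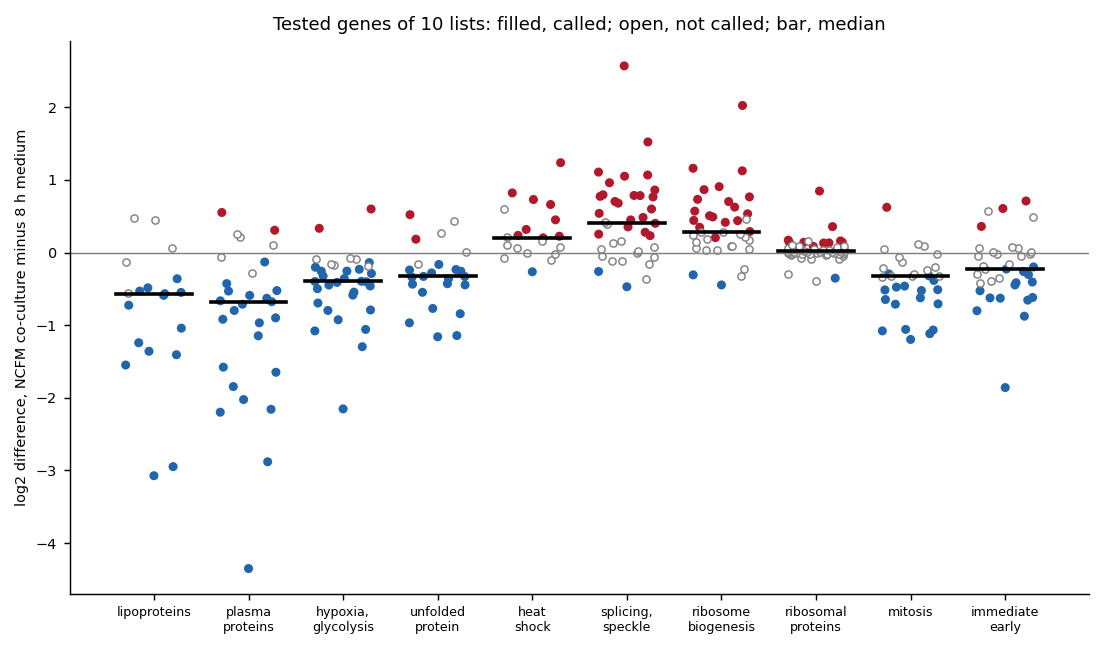
Log2 difference of NCFM co-culture minus 8 h medium for each tested gene of 10 lists; filled points are called at an adjusted p under 0.05, open points are not, and the short bar is the list's median. Splicing and speckle genes centre at 0.40, mitosis genes at -0.33, and ribosomal proteins at 0.02.

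Of 20 tested genes of death receptor signalling (26 listed) 7 fell (35%, against 18.4% of all genes) and 3 rose (15%, against 16.8%). Beside TNFSF10, the ligand TNFSF15 read 5.13 and 5.54 with NCFM, against 6.93 and 6.81 with medium, and the TRAIL receptors TNFRSF10B and TNFRSF10D fell by 0.57 and 0.68. TNFRSF9, the costimulatory receptor 4-1BB, rose (6.40 and 6.42, against 5.56 and 5.73). In the BCL2 family 5 of 17 tested (20 listed) fell (29.4%, against 18.4% of all genes), BCL2L1 by 0.54 and MCL1 by 0.16 among them, and PMAIP1, the death-promoting NOXA, rose by 1.01. The MCL1 call was lost without NCFM replicate 2 or medium replicate 2.

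NF-kB targets gave no common direction against medium. Of 21 tested (30 listed) 3 rose and 4 fell, shares near those of all genes, with a median of 0.03. NFKBIZ, an atypical IkB protein, read 10.05 and 10.08 with NCFM, against 8.53 and 8.58 with medium (1.52 ± 0.074 SE), and TNFAIP3, the ubiquitin editor that ends NF-kB signalling, 7.45 and 7.19, against 6.67 and 6.46 (0.75 ± 0.13 SE, limma adjusted p = 1.48e-04). NFKBIE rose by 0.54, but the call was lost without NCFM replicate 1 or either medium array (adjusted p up to 0.325). ICAM1, a leukocyte adhesion receptor, read 6.0 and 6.05, against 7.35 and 7.35. SOD2, TNIP1 and NFKBIA fell by 0.47, 0.35 and 0.25, and these calls too were lost when single arrays were left out. This was the case without NCFM replicate 1 or medium replicate 1 for SOD2, without NCFM replicate 2 or medium replicate 1 for TNIP1, and without NCFM replicate 2 or either medium array for NFKBIA. The chemokine CCL20 read 9.67 and 9.46, against 9.53 and 9.52, and was not called (adjusted p = 0.758). CXCL8 averaged under the floor in both groups on its chosen probe set (2.38 and 2.53, against 1.75 and 2.75) and was not called, while its other probe set, which may cross-hybridise, rose by 1.63.

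NCFM was also set against the other live strains. The contrast of NCFM with the mean of the B. lactis 420 and Ls-33 co-cultures, which leaves the medium arrays out, called 1246 of 11865 genes (10.5%), 474 higher (3.99%) and 772 lower (6.51%) with NCFM. With joint quantile normalization the split was 766 higher and 589 lower, again the opposite balance. Without NCFM replicate 1 the count of higher genes was 309. At 2-fold or more, 58 genes were lower with NCFM (0.489%) and 1 was higher (0.00843%), the checkpoint gene RAD9A. Against B. lactis 420 alone 360 genes were called (3.03%), and against Ls-33 alone 1742 (14.7%). Of the 21 NF-kB genes 12 were lower with NCFM (against 6.51% of all genes) and none higher, with a median of -0.58. The 12 include CXCL8 and CXCL10, which averaged under the floor with NCFM and with medium. Both were tested because the floor applies to the mean over all fitted arrays, which their signal with the other live strains raised. The count therefore rests in part on how genes were admitted to the test. The lists of interferon-stimulated genes, death receptor genes and unfolded protein response genes were lower in 12 of 28, 10 of 20 and 9 of 24 tested members, and only the first held a gene that was higher, IFIT1. Without NCFM replicate 1 the interferon count was 6, without NCFM replicate 2 the unfolded protein response count was 5, and IFIT1 lost its call without NCFM replicate 2, B. lactis 420 replicate 1 or Ls-33 replicate 2.

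CCL20 read 9.67 and 9.46 with NCFM, against 12.24 and 12.35 with B. lactis 420 and 12.08 and 12.16 with Ls-33 (-2.65 ± 0.064 SE against their mean, limma adjusted p = 3.98e-16). LRG1, a secreted acute phase glycoprotein, read 4.24 and 4.18 with NCFM, against 7.12 and 6.98 with B. lactis 420 and 9.11 and 9.19 with Ls-33. OLR1, a scavenger receptor, read 4.60 and 4.66, against 7.81 and 7.81 and then 9.15 and 9.28 with the same strains, and CASP5, an inflammatory caspase, 3.27 and 3.51, against 6.43 and 5.96, and 8.33 and 8.26. All of them are among the deepest differences of this contrast, ranked on these same arrays. That the NCFM arrays lay below every array of the other strains is therefore part of the choice. The remaining genes of the 12 deepest differences were PI3, CEACAM7, C3, KYNU, MIR146A, CXCL10, CXCL8 and TNFRSF9, from -3.83 for PI3 to -2.56 for TNFRSF9. With NCFM both CXCL8 and CXCL10 were under the floor, and the size of their differences is uncertain. Against medium, OLR1 (1.15), TNFRSF9 (0.77) and MIR146A (1.77) rose with NCFM, while LRG1, CASP5, C3, CEACAM7, KYNU, PI3 and CXCL10 were not called.

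Where NCFM was the higher strain, differences were about 1 at most. ARRDC4 read 6.52 and 6.53 with NCFM, against 5.54 and 5.58 with B. lactis 420 and 5.69 and 5.70 with Ls-33 (0.90 ± 0.12 SE). TXNIP was higher with NCFM by 0.52, KLF10 by 0.50 and SULT2A1, a sulfotransferase for steroids and bile acids, by 0.85. RAD9A, RASSF8-AS1, MAOA, ENGASE, TRAF5, SLC6A4, GOLGA2P5, AKAP9, MAP2K6 and LINC01091 completed the 12 largest, from 1.01 to 0.84. MAOA, TRAF5 and MAP2K6 lost their calls without NCFM replicate 1, and GOLGA2P5 without NCFM replicate 2. SLC6A4, the serotonin transporter, fell against medium (5.31 and 5.23 with NCFM, against 7.04 and 6.95) and stood at 4.45 and 4.33 with B. lactis 420 and 4.47 and 4.20 with Ls-33. Of the 15 deepest falls against medium 9 were not called in this contrast, SLC2A5, TNFSF10 and MTTP among them, with differences from -0.36 to 0.27. ADGRF2P and APOA4 were lower with NCFM than with the other strains, by 0.76 and 0.27, and AQP10, LGALS14, PHEX and TNS1 were higher, by 0.49 to 0.64. ADGRF2P and LGALS14 lost these calls without NCFM replicate 1, and TNS1 without NCFM replicate 2, B. lactis 420 replicate 1 or Ls-33 replicate 2.

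A kappa-B motif, the site that NF-kB dimers bind, was found on either strand in 8 of the 17 promoters of the NF-kB list, against 5.72% of all promoters. TNFAIP3, with 2 matches, and CCL20, with 1, are shown because TNFAIP3 rose with NCFM and CCL20 did not, while both read higher with the other strains. TNFAIP3 lies at chr6:137867009-137867308 on the plus strand and CCL20 at chr2:227813592-227813891 on the plus strand.
TNFAIP3: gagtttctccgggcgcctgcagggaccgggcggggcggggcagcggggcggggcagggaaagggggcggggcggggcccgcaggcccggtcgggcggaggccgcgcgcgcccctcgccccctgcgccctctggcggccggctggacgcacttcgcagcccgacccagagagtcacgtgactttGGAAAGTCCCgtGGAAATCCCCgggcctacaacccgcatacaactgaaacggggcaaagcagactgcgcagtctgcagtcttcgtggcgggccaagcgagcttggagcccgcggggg
CCL20: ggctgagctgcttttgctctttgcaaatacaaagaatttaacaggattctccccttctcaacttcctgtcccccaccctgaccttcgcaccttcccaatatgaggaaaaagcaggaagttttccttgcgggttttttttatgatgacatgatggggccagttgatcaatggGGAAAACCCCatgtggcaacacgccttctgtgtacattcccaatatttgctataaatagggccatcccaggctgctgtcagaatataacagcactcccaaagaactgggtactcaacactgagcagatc

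**Figure D5:**
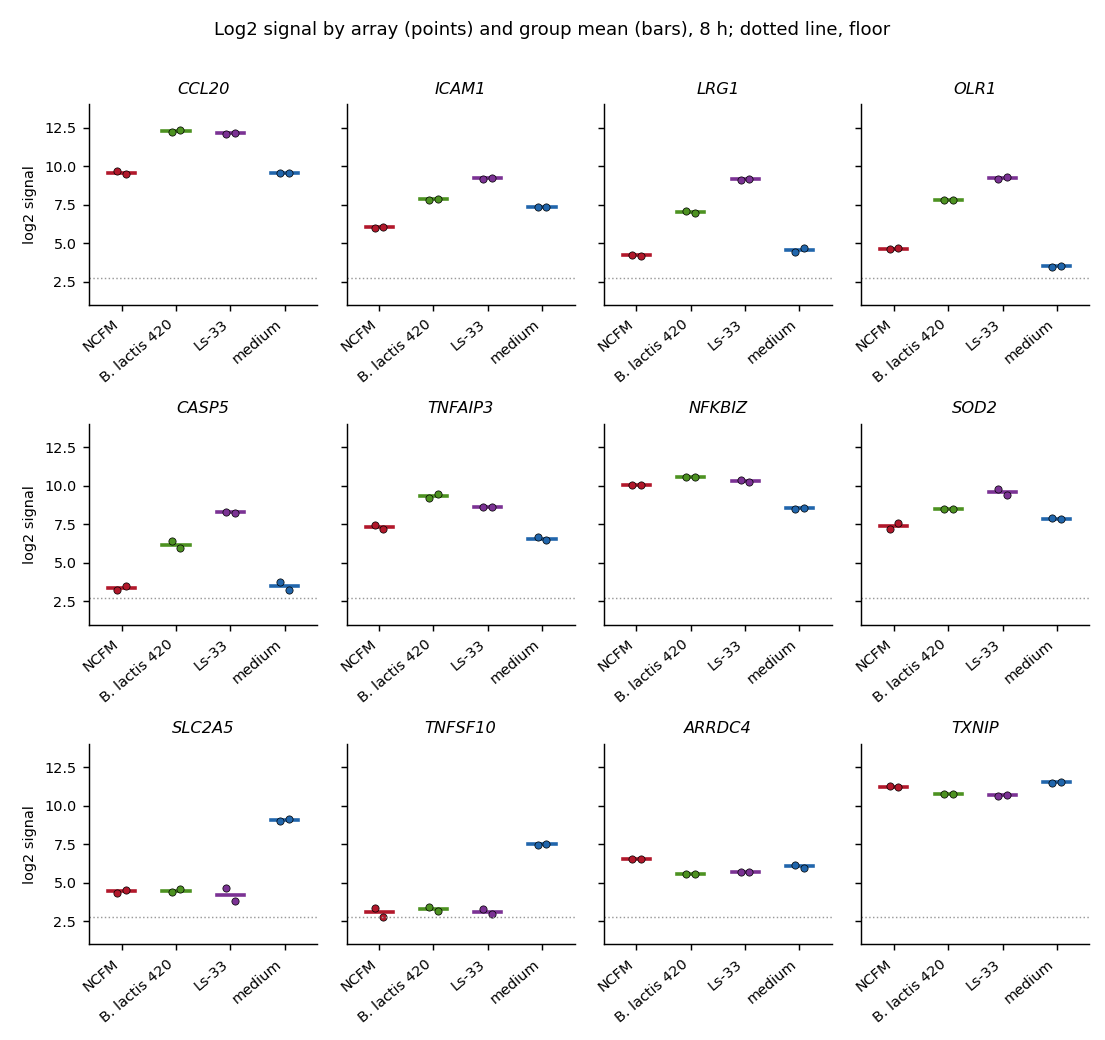
Log2 signal of 12 genes in each array of the NCFM, B. lactis 420 and Ls-33 co-cultures and of 8 h medium; points are arrays and bars are group means (n = 2). CCL20 is at 9.67 and 9.46 with NCFM and above 12 with both other strains, and ARRDC4 is highest with NCFM.

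Part of the barrier genes fell. Of 20 tested tight junction genes (29 listed) 8 fell (40%) and CLDN12 rose, a call lost without medium replicate 2 (adjusted p = 0.132). The claudins CLDN3 and CLDN7 read 7.31 and 7.40 with NCFM, against 8.15 and 7.95 with medium, and 9.25 and 9.15, against 9.72 and 9.67. Occludin, OCLN, read 11.33 and 11.35, against 11.56 and 11.55. CLDN1 was not called (-0.09), and TJP1, the scaffold ZO-1, differed by 0.12 on its chosen probe set and fell by 0.45 on the other. Among 17 tested genes of adherens junctions and desmosomes (19 listed) 6 fell (35.3%, against 18.4% of all genes) and 2 rose (11.8%, against 16.8%). DSG2 and DSP were lower by 0.42 and 0.29, and CDH1, E-cadherin, stood at -0.03 without a call. Of 16 tested genes of mucins, trefoil and antimicrobial proteins (28 listed) 4 fell (25.0%, against 18.4% of all genes) and 1 rose (6.25%, against 16.8%). The other 11 were not called, MUC1, MUC13, TFF3 and SLPI among them. LYZ, lysozyme, read 5.98 and 6.19, against 7.51 and 7.16, and the defensin DEFB1 4.75 and 4.61, against 6.12 and 5.83, while the lectin REG4 rose by 0.28, a call lost without NCFM replicate 1 or medium replicate 1 (adjusted p up to 0.366). Of 14 tested receptors and adaptors that sense bacteria (25 listed), 1 was higher (7.14%) and 2 lower (14.3%), the second share near that of all genes (18.4%). In this list the kinase MAP3K7 was called higher and TLR5 and PGLYRP2 lower, both near or under the floor, while the adaptor MYD88 was not called (-0.03). The MAP3K7 and TLR5 calls were lost without NCFM replicate 2 or medium replicate 2.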

How the data were processed

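Gene expression was measured on 20 whole-genome arrays, of which the NCFM co-culture and the 8 h medium control have 2 each. The log2 values deposited by the authors were made with RMA, a method that corrects background, normalizes quantiles and summarises probe sets, per the submitters' processing notes. Neither the RMA version nor the arrays it was run on together is given in the sources used here. All 20 columns of values belong to samples of the series. Of 54675 probe sets 41091 carry 1 gene symbol, 1801 several and 11721 none, and 62 are control probe sets; 54 symbols were not updated to RefSeq names of GRCh38.p14. The 19775 named genes, 10523 of them with more than 1 probe set, were each represented by the probe set of highest mean log2 signal over the 20 arrays, taken from those marked as prone to cross-hybridise only where a gene had no other. Genes at or above the 40th percentile of the mean log2 signal over 14 arrays, a floor of 2.74, were tested.

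The 14 arrays of 7 groups of 2 were fitted together with limma 3.58.1 in R 4.3.3 (lmFit, and eBayes with a variance trend). The p-values were adjusted with Benjamini-Hochberg over 11865 genes. Beside medium and the live co-cultures, these groups held cells given 10% cell-free supernatant of NCFM, B. lactis 420 or Ls-33 for 24 h. The supernatant arrays entered the estimate of spread and the floor, and not the contrasts reported. The contrasts were NCFM minus medium and NCFM minus the mean of the other live strains. The fit was tested on simulated data. The number of arrays limits the precision, with 2 a group. The groups, the 44 gene lists and the motifs were chosen with earlier results of these data known. Named genes are the 15 largest rises and falls with groups that do not overlap, up to 6 called and 3 uncalled genes of each list (all of lists up to 12), the 12 largest differences in each direction against the other strains, the 12 genes with the widest gap between called probe sets of opposite direction, and a set of fixed genes.

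Alternatives were other filters, variance models, sets of arrays, joint quantile normalization, other probe sets and leaving out 1 array. Mature microRNAs and proteins were not analysed here.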

Additional observations from a re-analysis of the deposited data

Results flagged for a closer look

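For 13 genes the NCFM co-culture differed from 8 h medium in one direction and the B. lactis 420 and Ls-33 co-cultures both differed in the opposite direction, with the same medium arrays as reference. The genes were chosen for that pattern on these arrays, so the differences of NCFM from the mean of the other strains are given as a description, with no test. ICAM1, the leukocyte adhesion receptor, averaged 6.03 with NCFM, against 7.84 with B. lactis 420, 9.20 with Ls-33 and 7.35 with medium, a strain difference of -2.49. PIGR, the transporter of mucosal antibodies, averaged 2.18, against 3.61, 4.74 and 2.61 (-2.0). It lay under the floor with NCFM and with medium, so the size of its differences is uncertain. The ubiquitin ligase RNF183 averaged 5.33, against 6.87, 7.47 and 6.42 (-1.84). SOD2, the mitochondrial superoxide dismutase, averaged 7.41, against 8.49, 9.63 and 7.88 (-1.65). The complement factor CFB and the trefoil peptide TFF1 differed by -1.44 and -1.37. The same held for TNIP1, an inhibitor of NF-kB signalling, at -1.10, and for MAFF at -0.87, PNMA2 at -0.84, the galectin LGALS8 at -0.77, the GTPase RAC1 at -0.40 and JPT1 at -0.37. ARRDC4 was the reverse case, at 6.53 with NCFM, against 5.56 with B. lactis 420, 5.70 with Ls-33 and 6.08 with medium (0.90). Against medium, the calls of ICAM1, RNF183, CFB and TFF1 held whichever single array was left out. Those of the other 9 genes were lost without at least 1: PIGR whichever of the 4 was left out (adjusted p up to 0.246), ARRDC4 without either NCFM array or medium replicate 2 (0.146), and SOD2 without NCFM replicate 1 or medium replicate 1 (0.174). TNIP1, MAFF and PNMA2 lost theirs without NCFM replicate 2 or medium replicate 1, LGALS8 and RAC1 without NCFM replicate 2 or either medium array, and JPT1 without medium replicate 1.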

How the results depend on the processing

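The number of arrays, 2 a group, limits the precision, and genes under the floor were not tested. The count of genes called against medium (1997 higher and 2189 lower) stayed within 1.5 times under each setting with 1 probe set a gene. Joint quantile normalization gave 2288 and 1934, the opposite balance. Without 1 array the gene count ranged from 1413 to 1680 higher and from 1642 to 1972 lower. A fit of every probe set called 3182 higher and 4385 lower, which are probe sets and not genes. Against the other strains (474 higher and 772 lower) no variance trend gave 292 and 476, a fit of only the groups compared 303 higher, and joint quantile normalization 766 higher; without 1 array the counts ranged from 309 to 387 higher and from 517 to 664 lower. The median of all genes was 0.0158 against medium and 0.034 against the other strains under that normalization. The replicate block gave 1974 higher and 2156 lower against medium, and 456 and 740 against the other strains. The block's numbers do not pair the samples (deviations of same-numbered NCFM and medium arrays correlated at 0.0022), and it changed 3 gene calls, PI3, TGIF1 and PIGR. Of 41 list counts 34 stayed within 1.5 times under each setting run (no filter, joint quantile normalization and leaving out 1 array, the last chosen after seeing the data). Higher detoxifying enzymes numbered 4 with no filter and 3 to 5 without 1 array, and lysosome genes lower 5 with joint quantile normalization and 3 to 9 without 1 array. Without 1 array the counts were 3 to 6 for long non-coding RNAs higher and 3 to 6 for G1/S genes higher. Clock genes lower numbered 2 to 5. Against the other strains the counts were 6 to 11 for interferon genes lower and 5 to 9 for unfolded protein response genes lower. Of 222 named calls against medium 31 were lost without at least 1 array, and of 46 against the other strains 8; none of them changed sign. Other probe sets of 52 named genes differed from medium with the opposite sign. Where both probe sets were called the other stood at CALR 1.16 and 0.99, GART -0.52, HNRNPDL 0.67, IDI1 -0.20, LAMP2 -0.18, LPP 0.71, MAD2L1 -0.52, MBNL2 1.53, NKTR -1.33, ORAI2 1.65, SOS1 2.08, UACA 1.48, USH1C -0.83 and -0.65, VIL1 1.01 and 1.16, ZCCHC7 1.62. Where only the chosen one was called the other stood at ABCC3 0.040, ABCC4 -0.27 and -0.50, ATP5F1C -0.089, -0.084 and -0.076, CBFA2T2 -0.10 and -0.40, CFB 0.33, DNAJB4 -0.21, EPB41L4A-AS1 0.15, FGB -0.11, GPATCH2L -0.13, HERPUD1 0.17, HK2 0.21, HNRNPDL 0.14, IDI1 -0.094, LAMP2 -0.11, LGALS8 0.036, MALAT1 -0.016 and -0.10, MAP3K7 -0.081 and -0.14, MCM4 -0.19, ORAI2 0.13, PIGR 0.28, PNMA2 0.0098, PPFIBP1 -0.53, REG4 -0.014, SPRY1 0.092, TUG1 -0.045, UACA 0.23, ZMAT3 -0.0098. Where only the other was called it stood at ADAM17 0.46, G3BP1 1.02, HNRNPA2B1 0.88 and 0.52, LGALS3 0.46, NAMPT -1.38 and -0.27, NEK2 -0.67, PSMB7 0.92, PSMC2 -0.25, SAR1B -0.22 and -1.92, SQLE 1.42, SRSF5 0.67, TGIF1 0.93, TJP1 -0.45, WWC1 -0.74, ZFAS1 1.79. The cause of these changes was not tested.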

Other observations

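Of 12 tested clock genes (19 listed) 4 fell (33.3%, against 18.4% of all genes) and 2 rose (16.7%), with a median difference of -0.02. The repressor NFIL3 read 8.05 and 7.96 with NCFM, against 8.69 and 8.82 with medium, and TEF and DBP, which act on the same promoter element, fell by 0.70 and 0.62. BHLHE41, a repressor of the clock, rose by 0.68. Without medium replicate 2 only 2 of the falls were called, and DBP lost its call without NCFM replicate 2 or medium replicate 2, BHLHE41 without NCFM replicate 1 or medium replicate 1. PER3 and CRY2 were not called. Of 17 tested Wnt targets and stem cell markers (22 listed) 4 rose (23.5%, against 16.8% of all genes). Another 3 fell (17.6%, against 18.4%), and the median was 0.14. LGR5, the receptor that marks intestinal stem cells, read 3.44 and 4.25, against 2.86 and 2.65, and PROM1, the glycoprotein CD133, 8.70 and 8.67, against 7.98 and 8.12. The LGR5 call was lost without NCFM replicate 2 (adjusted p = 0.0921).

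Sugar uptake genes other than SLC2A5 showed smaller differences. Of 11 tested genes (21 listed) 4 fell (36.4%, against 18.4% of all genes) and 1 rose (9.09%, against 16.8%), with a median of -0.07. The glucose transporter SLC2A1 fell by 0.36 and the hexokinase HK2 by 0.45, while KHK, which phosphorylates fructose, was not called (0.13). Of 22 tested genes of fatty acid synthesis and oxidation (30 listed) 7 fell (31.8%, against 18.4% of all genes) and 2 rose (9.09%, against 16.8%). The risers were ME1 by 0.44 and ACADVL by 0.50, and the ACADVL call was lost without NCFM replicate 1 or medium replicate 2. BSG, the chaperone of lactate transporters, read 11.57 and 11.34 with NCFM, against 12.27 and 12.22 with medium. In all, 3 of 8 tested genes of pH sensing and lactate transport (22 listed) fell (37.5%, against 18.4% of all genes). The 1 riser was CA2 (12.5%, against 16.8%). Histone genes and p53 targets were called at shares near those of all genes (16.8% higher and 18.4% lower) or below them. Histone genes gave 2 rises and 2 falls among 12 tested (23 listed, 16.7% each), with H2AZ1 higher by 0.61, and p53 targets 2 rises and 3 falls among 17 tested (22 listed, 11.8% and 17.6%), with ZMAT3 higher by 0.87 and MDM2 not called. Of 28 tested lysosome and autophagy genes (32 listed) 9 fell (32.1%, against 18.4% of all genes) and 5 rose (17.9%, against 16.8%). Without single arrays the falls were 3 (NCFM replicate 2), 4 (medium replicate 2) or 5 (medium replicate 1). The cathepsin CTSZ fell by 1.15 and the membrane protein LAMP2 rose by 0.36 on its chosen probe set, while another LAMP2 probe set fell by 0.18.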
